A study of Saccharomyces cerevisiae with 42 samples.

Results

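The comparison described here sets the transcript levels that Saccharomyces cerevisiae cells reached after 60 min of hyperosmotic shock in a strain named HOG1-CCAAX against those in a strain named HOG1-GFP. It used the 14 arrays hybridised with RNA of these strains at 60 min, of 42 arrays in all. The authors averaged them into 6 columns of levels, 3 per strain, of 18 columns in the study. The columns were chosen by strain and time alone, and values of 1 biological replicate were compared with each other.

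The study sampled HOG1-GFP, HOG1-CCAAX and the strain hog1del before (0 min) and 60 min after addition of 1 M sorbitol at 25 °C, in 3 biological replicates. All cells of the comparison thus had sorbitol for the same time, and no sample was kept for 60 min without it. HOG1-GFP carries a fusion of Hog1 to green fluorescent protein, hog1del has the gene deleted, and HOG1-CCAAX is named after CCAAX, a signal for prenylation that anchors proteins at membranes. The labels used here do not describe how the alleles were built, the strain background or the number of clones behind each strain. The title of the series puts the question whether nuclear Hog1 is required for survival of the shock.

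Hog1 is the mitogen-activated protein kinase of the high-osmolarity glycerol (HOG) pathway. Upon a rise of external osmolarity, the sensors Sln1 and Sho1 signal through kinase cascades to Pbs2, which phosphorylates Hog1. Active Hog1 raises the cell's glycerol through enzymes and channels in the cytoplasm, and much of it moves to the nucleus, where it acts at promoters through factors such as Hot1, Sko1, Smp1, Msn2 and Msn4. Cells without Hog1 also let osmotic signals leak into the pheromone and filamentation pathways, which share the kinase Ste11 with the Sho1 branch.

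A level is the log2 ratio of a sample's signal to that of a common reference pool of RNA, so that 1 unit stands for a 2-fold change. It ranks samples for a gene and does not compare genes. A difference is the level in HOG1-CCAAX minus that in HOG1-GFP, formed within a biological replicate, and is given as the mean ± SD over 3 replicates (n = 3) with its fold. Differences at 0 min and their changes over time are given with the SE of the fit. Differences were tested with limma over 5700 genes with the replicate as a block, and an adjusted p under 0.05 passed. The fit held the columns of all 3 strains, hog1del included, and drew on the spread of all genes. Its p-values thus do not test the SD printed beside them. The labels name biological replicates without saying whether these were separate cultures, so the p-values measure the spread between these samples, which may be technical. Every adjusted p given below comes from that model unless another is named.

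The tagged gene was checked first. HOG1 (YLR113W) read 0.46, 0.21 and 0.34 in replicates 1, 2 and 3 of HOG1-GFP, and 0.35, 0.60 and 0.06 in HOG1-CCAAX. It read −3.97, −3.49 and −3.64 in hog1del. The levels of HOG1-GFP and HOG1-CCAAX overlapped, and their difference was 0.003 ± 0.35 (95% interval −0.36 to 0.37, adjusted p = 0.9952). A probe for the GFP coding sequence had values in replicates 2 and 3 only. It read 0.74 and 0.69 in HOG1-GFP, 0.53 and 0.34 in HOG1-CCAAX, and −5.39 and −5.30 in hog1del. The GFP probe thus read close to HOG1-GFP in HOG1-CCAAX and far below both in hog1del. A probe for the kanMX4 marker read 0.89 and 0.97 in HOG1-GFP, −5.15 and −4.78 in HOG1-CCAAX, and −4.81 and −5.04 in hog1del, so that the compared strains also differed in a marker. Whether the marker bears on any transcript below was not tested.

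The columns at 60 min held 5935 to 6143 genes. Replicate 1 stood apart. Its 3 technical arrays had a median SD between arrays of 0.219 in HOG1-GFP and 0.231 in HOG1-CCAAX, against 0.061 to 0.077 for the pairs of arrays in replicates 2 and 3. The lowest correlation between its technical arrays was 0.61 in HOG1-GFP and 0.4 in HOG1-CCAAX, against 0.96 to 0.98 in replicates 2 and 3. Across genes, the strain difference of replicate 1 correlated with those of replicates 2 and 3 at 0.48 and 0.42, and replicates 2 and 3 correlated with each other at 0.74. These correlations run over genes of shared arrays, which are not independent.

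At 60 min, 638 of 5700 genes (11.2%) differed between the strains. There were 383 genes (6.72%) higher in HOG1-CCAAX and 255 (4.47%) lower, and with a 2-fold minimum 55 (0.965%) were higher and 62 (1.09%) lower. The median difference over all genes was 0.03. The shares of 6.72% higher and 4.47% lower are to be set beside the counts of each gene list below. HOG1-CCAAX was higher than hog1del in 5.95% of all genes and lower in 4.91%. Levels of HOG1-CCAAX and HOG1-GFP did not overlap in 1015 genes (17.8%), 11.3% higher and 6.54% lower. Genes named below for passing or for a large difference are likely not to overlap, so that trait is a description. Lower genes included the glycerol importer gene STL1, the glucose transporter gene HXT1 and enzymes of sugar and aldehyde metabolism, and higher genes included other glucose transporters, glycogen enzymes and the regulators MTH1, NRG2, HAP4 and TEC1. The split by direction depended on the centring: with the column medians set equal, 273 genes were higher and 314 lower. The number of calls depended on the replicates, with 1004 calls without replicate 1, 196 without replicate 2 and 116 without replicate 3, and 107 calls when the replicate block was left out.

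**Figure D1:**
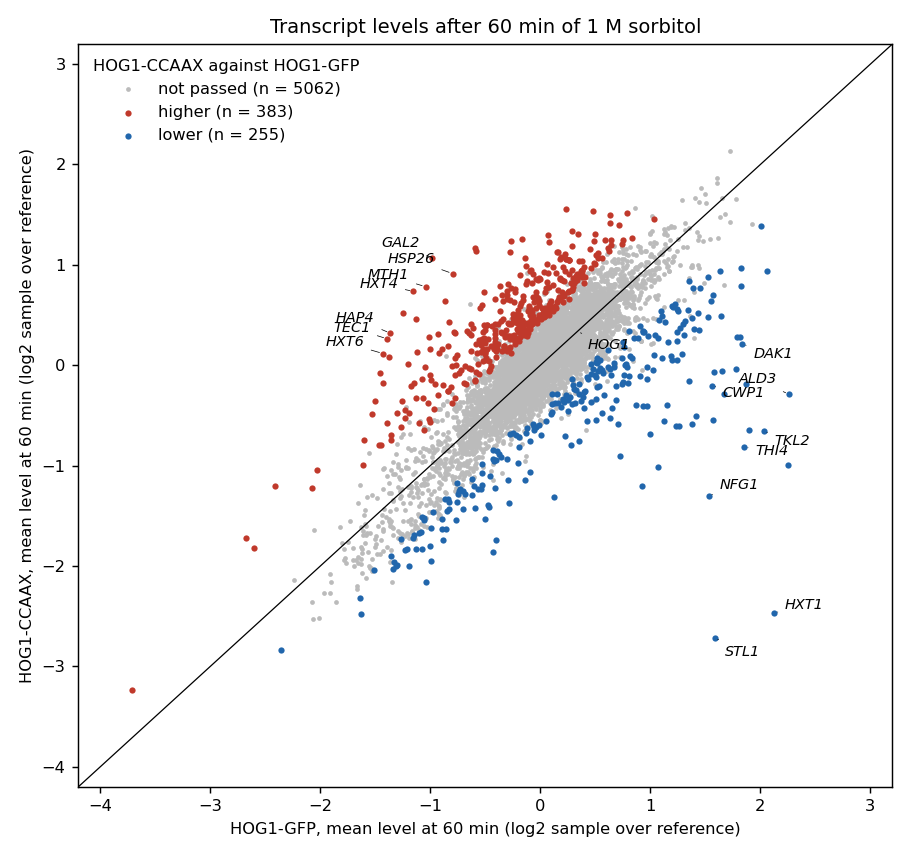
Mean level at 60 min of 1 M sorbitol in HOG1-GFP (x axis) and HOG1-CCAAX (y axis), in log2 sample over reference, n = 3 each; 1 point is a gene, coloured by the test (383 higher, 255 lower), and the line marks equal levels. STL1 and HXT1 lie farthest below the line, and HOG1 lies close to it.

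The 2 largest differences belonged to membrane transporters. HXT1, a low-affinity glucose transporter that is known to rise in osmotic stress, read 2.18, 2.00 and 2.19 in HOG1-GFP. In HOG1-CCAAX it read −0.94, −3.37 and −3.10. All 3 values of HOG1-CCAAX lay below all 3 of HOG1-GFP, and the drop was smallest in replicate 1. HXT1 was 24.1-fold lower in HOG1-CCAAX (log2 difference −4.59 ± 1.27, adjusted p = 8.1e-05). In hog1del it read −1.21, −2.79 and −3.38, a mean of −4.58 against HOG1-GFP, and HOG1-CCAAX differed from hog1del by −0.01 (adjusted p = 0.9927).

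STL1, the importer that takes up glycerol together with protons, read 2.41, 1.21 and 1.13 in HOG1-GFP. It read −2.25, −3.13 and −2.76 in HOG1-CCAAX and −3.63, −3.46 and −3.63 in hog1del. The 3 strains did not overlap. STL1 was 19.7-fold lower in HOG1-CCAAX than in HOG1-GFP (−4.30 ± 0.39, adjusted p = 9.5e-06). The level in HOG1-CCAAX was in turn 0.86 above that of hog1del (adjusted p = 0.0423). The STL1 value of HOG1-GFP replicate 1 came from 1 of 3 arrays, and without replicate 1 the difference was −4.12 (adjusted p = 5.6e-06). Background signal is not given in the deposited tables used here, so folds of genes that read this low may be understated.

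Of 14 measured genes for synthesis, breakdown and transport of glycerol, 2 were lower and 2 higher, beside 4.47% and 6.72% over all genes. Besides STL1, DAK1, which phosphorylates dihydroxyacetone in the breakdown of glycerol, fell short of HOG1-GFP. It read 1.56, 1.89 and 2.05 in HOG1-GFP and −0.09, 0.54 and 0.19 in HOG1-CCAAX, with no overlap, and was 3.08-fold lower (−1.62 ± 0.25, adjusted p = 8.1e-05). GUP2 was higher (0.88 ± 0.40, adjusted p = 0.0070), as was GCY1, a glycerol dehydrogenase of the breakdown route (0.51 ± 0.12, adjusted p = 0.0200, or 0.2126 without replicate 2, 0.1776 without replicate 3, 0.1747 without the block and 0.0544 with 2 strains in the fit). FPS1, the glycerol channel that closes upon shock, differed by 0.10 ± 0.27 (adjusted p = 0.6841). GPD2, the isoform of glycerol 3-phosphate dehydrogenase linked to redox balance, differed by 0.08 ± 0.18 (adjusted p = 0.7175). GUP2 lost its call when the replicate block was left out (adjusted p = 0.0533).

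The enzymes that make glycerol under osmotic stress had no values in replicate 1. They were tested in a fit of 6118 genes with at least 2 replicates per strain, in which 686 genes (11.2%) passed. GPD1, the stress-induced glycerol 3-phosphate dehydrogenase, read 1.54 and 2.41 in replicates 2 and 3 of HOG1-GFP and 0.82 and 0.09 in HOG1-CCAAX. GPP2, the stress-induced glycerol 3-phosphatase, read 1.77 and 2.37 in HOG1-GFP and 0.93 and 1.02 in HOG1-CCAAX. GPP1, its paralogue, read 0.82 and 1.02 in HOG1-GFP and −1.18 and −1.34 in HOG1-CCAAX. For each of these genes, both values of HOG1-CCAAX lay below both of HOG1-GFP. At 0 min GPP2 read −3.15 and −3.06 in HOG1-GFP and −3.71 and −3.65 in HOG1-CCAAX. GPP1 read −0.52 and −0.62 in HOG1-GFP and −0.98 and −1.22 in HOG1-CCAAX. GPD1 read −2.47 and −2.38 in replicates 2 and 3 of HOG1-GFP and −3.63 in replicate 2 of HOG1-CCAAX. HOG1-CCAAX thus read lower for these genes without sorbitol as well, which was not tested. The differences were −1.53 ± 1.13 for GPD1 (n = 2, adjusted p = 0.0178 by limma) and −1.10 ± 0.36 for GPP2 (n = 2, adjusted p = 0.0110 by limma). For GPD1 the 2 replicates differed by −0.73 and −2.33, while the SE of the fit was 0.30. For GPP1, a gene chosen after its values were seen, the difference was −2.18 ± 0.25 (n = 2, adjusted p = 1.3e-04 by limma). In hog1del GPD1 read 0.36 and −0.17, GPP2 1.01 and 0.71 and GPP1 −1.60 and −1.82. HOG1-CCAAX did not pass against hog1del for GPD1 (adjusted p = 0.4642), GPP2 (adjusted p = 0.7373) or GPP1 (adjusted p = 0.0899).

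That fit added 418 genes, of which 60 passed, 19 higher and 41 lower (over all 6118 genes, 6.42% were higher and 4.79% lower). GRE2, a reductase of methylglyoxal that osmotic stress induces, had no value in replicate 1 of HOG1-GFP. It read 1.06 and 1.02 in replicates 2 and 3 of HOG1-GFP and −1.29, −1.38 and −1.95 in replicates 1, 2 and 3 of HOG1-CCAAX. The difference was −2.89 (SE 0.29, adjusted p = 4.9e-04). HSP12, a small membrane-binding protein of many stresses, read 1.36 and 1.43 in replicates 2 and 3 of HOG1-GFP and 0.46 and 0.42 in HOG1-CCAAX, a difference of −0.95 ± 0.08 (n = 2, adjusted p = 0.0038 by limma). In hog1del HSP12 read −0.49 and −0.40, and HOG1-CCAAX lay 0.89 above it (adjusted p = 0.0068). In HSP12 and GRE2 no value of one strain reached the range of the other at 60 min. At 0 min HSP12 read −4.27 and −3.97 in HOG1-GFP and −5.67 and −4.74 in HOG1-CCAAX in replicates 2 and 3. GRE2 read −0.86, −2.22 and −2.25 in replicates 1 to 3 of HOG1-GFP at 0 min and −1.70 and −3.06 in replicates 1 and 2 of HOG1-CCAAX. Both genes read lower in HOG1-CCAAX without sorbitol too in each replicate with both values, which was not tested.

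Of 39 measured genes that are widely reported to need Hog1 for their osmotic induction, 16 were lower in HOG1-CCAAX, 3 were higher and 20 did not pass. Their median difference was −0.54, against 0.03 over all genes, and their median in hog1del minus HOG1-GFP was −1.41. Against hog1del, 30 of the 39 were higher in HOG1-CCAAX and 0 lower, at a background of 5.95% higher and 4.91% lower over all genes. Against HOG1-GFP the shares over all genes were 4.47% lower and 6.72% higher. The list was chosen with earlier results of these data known, so its counts are a description and no independent evidence. The 3 higher members were USV1, a zinc finger factor (1.32 ± 0.21, adjusted p = 2.7e-04, or 0.1386 without the block), PGM2, a phosphoglucomutase (0.81 ± 0.49, adjusted p = 0.0187, or 0.1305 without replicate 2 and 0.2727 without the block), and GCY1. MPC3, a subunit of the mitochondrial pyruvate carrier, was lower (−1.15 ± 0.26, adjusted p = 0.0028, or 0.0633 without replicate 3 and 0.0838 without the block). Without replicate 3, 11 members were lower and 2 higher, and without the replicate block 7 were lower and 0 higher.

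Enzymes of the pentose phosphate pathway and of aldehydes were among the lower members. TKL2, the minor isoform of transketolase, read 2.30, 1.81 and 1.98 in HOG1-GFP and −0.35, −0.54 and −1.08 in HOG1-CCAAX. It was 6.42-fold lower (−2.68 ± 0.36, adjusted p = 9.6e-05), and hog1del was lower again at −1.51, −2.86 and −3.16. The 3 strains formed separate ranges. NQM1, a paralogue of transaldolase, was 3.26-fold lower (−1.71 ± 0.43, adjusted p = 1.7e-04). SOL1, a homologue of 6-phosphogluconolactonase, differed by −1.13 ± 0.47 (adjusted p = 0.0026) with ranges that overlapped. These 3 were the lower genes among 12 measured of the pathway, and 0 were higher, beside 4.47% and 6.72% over all genes. TKL1, the main transketolase, differed by 0.37 ± 0.19 (adjusted p = 0.0902). Without the block NQM1 (adjusted p = 0.0772) and SOL1 (adjusted p = 0.4694) did not pass, nor did SOL1 without replicate 3 (adjusted p = 0.0706).

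ALD3, a cytosolic aldehyde dehydrogenase induced by stress, read 3.00, 1.82 and 1.96 in HOG1-GFP. It read 0.36, −0.21 and −1.02 in HOG1-CCAAX and −0.56, −2.37 and −2.81 in hog1del, and the ranges of HOG1-GFP and HOG1-CCAAX did not overlap. ALD3 was 5.85-fold lower in HOG1-CCAAX (−2.55 ± 0.47, adjusted p = 1.3e-04). GRE3, an aldose reductase, read 1.94, 1.58 and 1.47 in HOG1-GFP and −0.56, 0.08 and −0.37 in HOG1-CCAAX, and was 3.86-fold lower (−1.95 ± 0.51, adjusted p = 9.7e-05). ARI1, a reductase of aromatic aldehydes, was 4.16-fold lower (−2.06 ± 0.25, adjusted p = 1.9e-05), and ALD6, the main cytosolic acetaldehyde dehydrogenase, differed by −1.15 ± 0.50 (adjusted p = 0.0023). The list of aldehyde and aldo-keto genes did not hold ARI1. Of its 16 measured genes, 3 were lower, ALD3, GRE3 and ALD6. The 2 higher ones were GCY1 and the mitochondrial ALD5 (0.59 ± 0.26, adjusted p = 0.0178, or 0.2035 without replicate 2, 0.1583 without replicate 3 and 0.1113 without the block). The shares over all genes were 4.47% lower and 6.72% higher. ALD2, which adjoins ALD3 in the genome, read 3.01, 0.55 and 0.62 in HOG1-GFP and 0.40, 0.23 and 0.18 in HOG1-CCAAX, and did not pass (adjusted p = 0.1689). Without the block ALD3 (adjusted p = 0.0804) and ALD6 (adjusted p = 0.5691) lost their calls, and ALD6 did so without replicate 3 (adjusted p = 0.0735).

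Other genes with large drops had varied roles. THI4, which makes the thiazole of thiamine, read 1.68, 2.04 and 1.85 in HOG1-GFP and −0.36, −1.12 and −0.97 in HOG1-CCAAX. It was 6.37-fold lower (−2.67 ± 0.57, adjusted p = 9.7e-05). In hog1del it read 0.05, −1.00 and −1.05, a range that overlapped that of HOG1-CCAAX. FSH1, a putative serine hydrolase, read 1.65, 0.59 and 0.53 in HOG1-GFP and −0.42, −1.69 and −1.51 in HOG1-CCAAX, and was 4.37-fold lower (−2.13 ± 0.14, adjusted p = 9.5e-06). RIB4, the lumazine synthase of riboflavin synthesis, was 3.9-fold lower (−1.96 ± 0.35, adjusted p = 6.9e-05). MOR1 was 4.23-fold lower (−2.08 ± 0.86, adjusted p = 0.0018) and lost its call without the block (adjusted p = 0.2061). YJL107C read 0.71, 1.96 and 2.03 in HOG1-GFP and −0.29, −0.39 and −0.96 in HOG1-CCAAX, without overlap, and was 4.32-fold lower (−2.11 ± 1.02, adjusted p = 0.0024, or 0.0544 without replicate 3). YBR116C was 9.51-fold lower (−3.25 ± 0.30, adjusted p = 5.9e-05). By its systematic name it lies beside TKL2 (YBR117C), so both probes may read shared transcripts. Its HOG1-GFP value of replicate 1 came from 1 of 3 arrays.

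SIP18, a hydrophilin that binds phospholipid, read 1.87, 1.85 and 1.63 in HOG1-GFP and 0.21, 0.32 and 0.30 in HOG1-CCAAX. It was 2.84-fold lower (−1.51 ± 0.17, adjusted p = 2.8e-04). GRE1, a related hydrophilin, differed by −1.37 ± 0.41 (adjusted p = 5.6e-04), and RTC3 by −1.53 ± 0.45 (adjusted p = 5.6e-04). The ranges of the strains did not overlap for these 3 genes, as for 6.54% of all genes in the lower direction. Among 17 hydrophilins and small stress proteins, 4 were lower (the fourth was DDR48 at −0.80 ± 0.55, adjusted p = 0.0346, or 0.0796 without replicate 2, 0.3161 without replicate 3 and 0.1731 without the block) and 2 higher, HSP30 (0.98 ± 0.12, adjusted p = 0.0034) and SPG4 (0.57 ± 0.25, adjusted p = 0.0346, or 0.2125 without replicate 2, 0.2453 without replicate 3 and 0.4631 without the block). The shares over all genes were 4.47% lower and 6.72% higher. CTT1, the cytosolic catalase, read 2.00, 1.87 and 1.89 in HOG1-GFP and 1.30, 1.74 and 1.19 in HOG1-CCAAX. These ranges did not overlap, yet CTT1 missed the threshold at −0.51 ± 0.33 (adjusted p = 0.0908), and HOG1-CCAAX lay 0.88 above hog1del (adjusted p = 0.0134). The sodium pump gene ENA1 differed by −0.27 ± 0.31 (adjusted p = 0.2697). GRE1 (adjusted p = 0.0926), RTC3 (adjusted p = 0.2518) and HSP30 (adjusted p = 0.2594) did not pass without the block, nor HSP30 without replicate 3 (adjusted p = 0.0768).

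**Figure D2:**
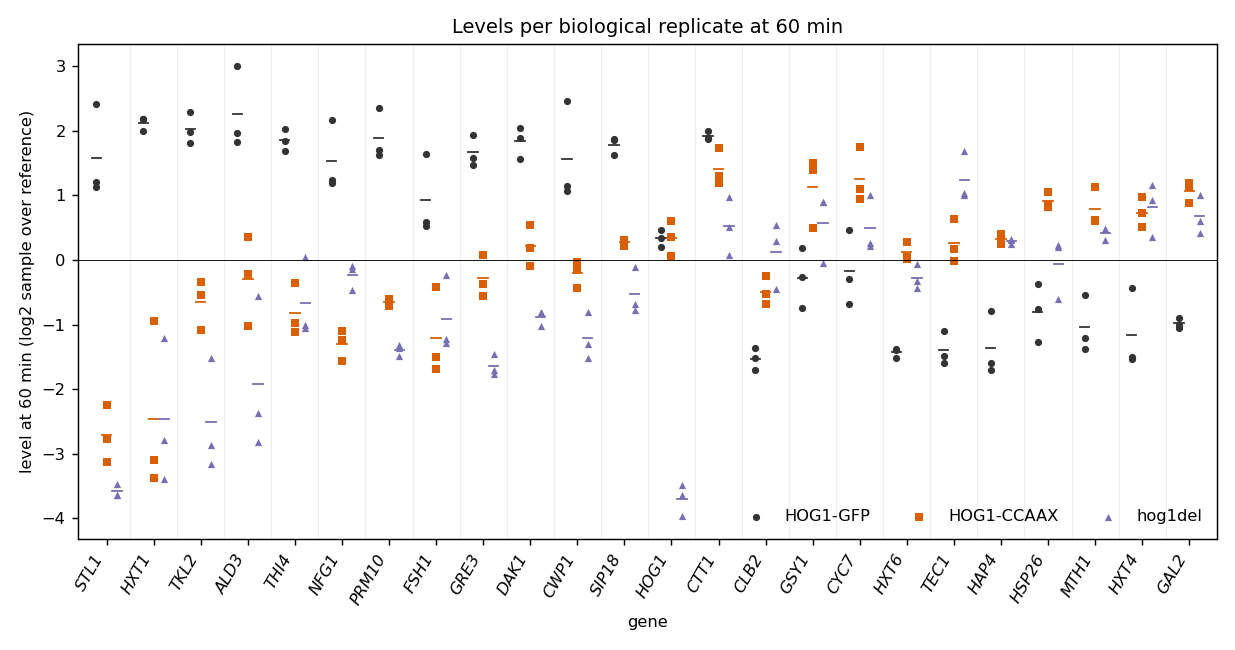
Level at 60 min (log2 sample over reference, y axis) of 24 genes in each biological replicate of HOG1-GFP (circles), HOG1-CCAAX (squares) and hog1del (triangles), with a dash at each mean of 3. Except for HOG1, the squares lie apart from the circles, and for STL1, TKL2 and SIP18 they lie between circles and triangles.

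The authors deposited a list of 30 genes that they chose, per the design text of the series, by a SAM test and for induction of over 3-fold in HOG1-GFP and under 3-fold in hog1del. The choice used the HOG1-GFP samples compared here and the hog1del samples, so the list is not independent evidence of a direction against either strain. Of its 29 measured genes, 24 were lower in HOG1-CCAAX, 5 did not pass and 29 had a difference below 0. Levels of the strains did not overlap in 28 of the 29, all lower in HOG1-CCAAX, beside 6.54% of all genes. The median difference was −1.55 (replicate medians −1.66, −1.36 and −1.33), against −2.31 for hog1del minus HOG1-GFP. HOG1-CCAAX lay above hog1del in 20 of the 29 (background 5.95%) and below it in 1, NFG1 (4.91%). These counts are a description, since the choice required a low induction in hog1del. The members differed in how far they fell. HXT1, APQ12, ARI1 and MOR1 differed from hog1del by at most 0.15 on average, with adjusted p from 0.5119 to 0.9927. YNL194C read 1.54, 1.20 and 1.41 in HOG1-GFP, 1.05, 1.18 and 0.70 in HOG1-CCAAX and −0.64, −1.28 and −1.05 in hog1del. It lay 1.97 above hog1del (adjusted p = 1.1e-04), while its difference from HOG1-GFP of −0.40 ± 0.35 did not pass (adjusted p = 0.1388). HBT1 (−0.80 ± 0.46, adjusted p = 0.1018) and YNL195C (−0.67 ± 0.72, adjusted p = 0.0933) did not pass. YHR138C and SPS100 did not pass either, with differences of −0.43 ± 0.42 (adjusted p = 0.1227) and −0.66 ± 0.83 (adjusted p = 0.1179). Without replicate 3, 19 of the 29 were lower, and without the replicate block 15.

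Several hexose transporters other than HXT1 were higher in HOG1-CCAAX. GAL2, a galactose permease that also carries glucose, read −0.89, −1.00 and −1.05 in HOG1-GFP and 0.88, 1.19 and 1.14 in HOG1-CCAAX. It was 4.14-fold higher (2.05 ± 0.24, adjusted p = 5.9e-05), and the ranges did not overlap. HXT4, a transporter of higher affinity, read −0.44, −1.50 and −1.53 in HOG1-GFP and 0.52, 0.97 and 0.72 in HOG1-CCAAX, and was 3.71-fold higher (1.89 ± 0.82, adjusted p = 0.0034, or 0.0564 without replicate 3). HXT6, a high-affinity transporter nearly identical to HXT7 so that their probes may cross-hybridise, read −1.40, −1.37 and −1.52 in HOG1-GFP and 0.05, 0.28 and 0.01 in HOG1-CCAAX. It was 2.92-fold higher (1.55 ± 0.10, adjusted p = 9.7e-05). Of 11 transporters measured, 6 were higher, 1 lower and 4 did not pass, beside 6.72% higher and 4.47% lower over all genes. Their median was 0.79, against 0.03 over all genes. HXT3 (1.16 ± 0.18, adjusted p = 4.3e-04), HXT2 (1.04 ± 0.29, adjusted p = 0.0013) and HXT10 (0.79 ± 0.37, adjusted p = 0.0169, or 0.0743 without replicate 2, 0.2017 without replicate 3 and 0.0838 without the block) complete the higher members. In hog1del minus HOG1-GFP the median of the 11 was 0.71, and GAL2, HXT4 and HXT6 differed by 1.66, 1.97 and 1.16.

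Regulators of glucose sensing differed with them. MTH1, which represses HXT genes together with Rgt1, read −0.54, −1.37 and −1.21 in HOG1-GFP and 1.12, 0.61 and 0.62 in HOG1-CCAAX. It was 3.55-fold higher (1.83 ± 0.16, adjusted p = 8.1e-05). EMI2, a paralogue of glucokinase, was 2.23-fold higher (1.16 ± 0.12, adjusted p = 3.3e-04). MIG1, the main repressor of glucose repression, differed by 0.74 ± 0.22 (adjusted p = 0.0062), and HXK1, a hexokinase, by 0.68 ± 0.54 (adjusted p = 0.0475). The levels of the strains did not overlap for these 4 genes, as for 11.3% of all genes in the higher direction. Of 13 measured genes of glucose sensing and phosphorylation, 4 were higher and 1, MIG2, lower (−0.45 ± 0.05, adjusted p = 0.0372, or 0.2411 without replicate 2, 0.2581 without replicate 3, 0.3603 without the block and 0.0724 with 2 strains in the fit). The shares over all genes were 6.72% higher and 4.47% lower. The call of MIG1 was lost without replicate 2 (adjusted p = 0.0991) or replicate 3 (0.0669). HXK1 lost its call without replicate 1, 2 or 3 (adjusted p = 0.0876, 0.1862 and 0.0830), without the block (0.2283), with median centring (0.0757) or quantile normalization (0.1256), and with 2 strains in the fit (0.0676).

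Genes of reserve carbohydrates were higher in part. GSY1, a glycogen synthase, read −0.75, −0.26 and 0.18 in HOG1-GFP and 0.50, 1.50 and 1.39 in HOG1-CCAAX. It was 2.65-fold higher (1.41 ± 0.30, adjusted p = 1.8e-04). GLC3, the branching enzyme, read −0.60, 0.17 and 0.63 in HOG1-GFP and 1.02, 1.57 and 1.31 in HOG1-CCAAX, and was 2.35-fold higher (1.23 ± 0.49, adjusted p = 0.0021). Neither gene's ranges overlapped, as for 11.3% of all genes in the higher direction. The primer of glycogen GLG1 (0.92 ± 0.45, adjusted p = 0.0091) and the glycogen phosphorylase GPH1 (1.03 ± 0.61, adjusted p = 0.0228) were higher as well. Of 21 measured genes of trehalose and glycogen, 7 were higher and 0 lower (median 0.30), beside 6.72% and 4.47% over all genes. The trehalose synthesis genes TPS1 and TPS2 differed by 0.10 ± 0.36 (adjusted p = 0.7168) and −0.47 ± 0.37 (adjusted p = 0.0789). Against hog1del, 15 of the 21 were higher in HOG1-CCAAX and 0 lower, beside 5.95% and 4.91% over all genes. The median in hog1del minus HOG1-GFP was −0.29. Without the block 0 of the 21 passed by limma (adjusted p = 0.1074 for GSY1 and 0.1677 for GLC3), and 7 had an unadjusted p under 0.05. Of the 21, 3 were higher without replicate 2 or without replicate 3. GLG1 did not pass without replicate 3 (adjusted p = 0.0699) or the block (0.0507), nor GPH1 without replicate 2 (0.1506), replicate 3 (0.2038) or the block (0.1053).

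HAP4, the limiting subunit of the activator of respiratory genes, read −0.79, −1.60 and −1.71 in HOG1-GFP and 0.40, 0.31 and 0.25 in HOG1-CCAAX. It was 3.21-fold higher (1.69 ± 0.44, adjusted p = 3.8e-04), with no overlap. CYC7, an isoform of cytochrome c, read 0.47, −0.30 and −0.67 in HOG1-GFP and 1.75, 1.09 and 0.94 in HOG1-CCAAX, and was 2.69-fold higher (1.43 ± 0.17, adjusted p = 9.7e-05). IDP2, a cytosolic isocitrate dehydrogenase, was 2.19-fold higher (1.13 ± 0.21, adjusted p = 4.3e-04), and NDI1, the internal NADH dehydrogenase, differed by 0.99 ± 0.45 (adjusted p = 0.0038). POT1, the thiolase of peroxisomal fatty acid oxidation, was 1.97-fold higher (0.98 ± 0.05, adjusted p = 4.9e-04). Of 33 genes of the TCA and glyoxylate cycles and gluconeogenesis, 9 were higher and 0 lower (median 0.34), and of 36 genes of the respiratory chain and ATP synthase, 5 were higher and 0 lower (median 0.10). The shares over all genes were 6.72% higher and 4.47% lower. Of 16 glycolytic genes 1 was lower, PFK27 (−0.91 ± 0.19, adjusted p = 0.0012), an activator of the pathway through fructose 2,6-bisphosphate. RGI2, induced in respiratory growth, was 3.4-fold higher (1.77 ± 0.47, adjusted p = 1.8e-04). Without replicate 2, replicate 3 or the block, 2, 2 and 1 of the 33 cycle genes and 2, 2 and 0 of the 36 respiratory genes were higher, and 6 of the 36 had an unadjusted p under 0.05 without the block. With quantile normalization 5 cycle genes were higher and 1 lower. CYC7 (adjusted p = 0.0861), NDI1 (0.1136) and PFK27 (0.1603) lost their calls without the block, and PFK27 without replicate 3 (0.0547).

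Of 16 sensors and cascade members of the HOG pathway, 2 were higher and 0 lower, beside 6.72% higher and 4.47% lower over all genes. The median was 0.02, against 0.03 over all genes. PBS2, the kinase that activates Hog1, differed by 0.03 ± 0.31 (adjusted p = 0.9219), SLN1 by 0.01 ± 0.12 (adjusted p = 0.9727) and SHO1 by −0.15 ± 0.18 (adjusted p = 0.4871). The higher members SSK1 (0.46 ± 0.10, adjusted p = 0.0360), the response regulator of the Sln1 branch, and OPY2 (0.47 ± 0.13, adjusted p = 0.0494), a membrane anchor of the Sho1 branch, were small changes. With median centring neither passed (adjusted p = 0.0538 and 0.0675), and both calls were also lost without replicate 2 (0.1953 and 0.2992), without replicate 3 (0.1968 and 0.2262), without the block (0.2431 and 0.2594), with quantile normalization (0.0599 and 0.0590) and with 2 strains in the fit (0.0702 and 0.0694). SSK1 also lost its call without replicate 1 (0.0681).

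Among 16 measured substrates, nuclear partners and phosphatases of Hog1, 3 were higher and 2 lower, beside 6.72% and 4.47% over all genes. PTP3, a tyrosine phosphatase that acts on Hog1, read 0.42, 1.60 and 1.53 in HOG1-GFP and −0.12, 0.28 and 0.11 in HOG1-CCAAX. It was 2.13-fold lower (−1.09 ± 0.48, adjusted p = 0.0075), while its paralogue PTP2 differed by 0.11 ± 0.18 (adjusted p = 0.6063). The general stress factors Msn2 and Msn4 went opposite ways at the transcript level. MSN2 read 0.70, 0.81 and 0.87 in HOG1-GFP and −0.14, 0.13 and −0.04 in HOG1-CCAAX (−0.81 ± 0.12, adjusted p = 0.0034). MSN4 read −0.86, 0.10 and −0.16 in HOG1-GFP and 0.40, 0.87 and 0.83 in HOG1-CCAAX (1.01 ± 0.25, adjusted p = 0.0019). For both, the ranges of the strains did not overlap, as for 17.8% of all genes. SMP1, a transcription factor that Hog1 phosphorylates, was higher (0.96 ± 0.11, adjusted p = 0.0013), as was the kinase gene RCK1 (0.71 ± 0.23, adjusted p = 0.0079, or 0.0799 without replicate 2, 0.0680 without replicate 3 and 0.0537 with quantile normalization). HOT1 and SKO1, whose products recruit Hog1 to promoters, differed by 0.08 ± 0.11 (adjusted p = 0.7257) and −0.09 ± 0.14 (adjusted p = 0.7174). Without replicate 3, PTP3 (adjusted p = 0.1181) and MSN2 (0.0927) did not pass, nor PTP3 without replicate 2 (0.0824). Without the block PTP3 (0.1190), MSN4 (0.1371) and SMP1 (0.1028) did not pass.

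The pheromone and filamentation programmes that are active in shocked cells without Hog1 were examined next. TEC1, the transcription factor of filamentation, read −1.10, −1.49 and −1.59 in HOG1-GFP and 0.63, 0.17 and −0.01 in HOG1-CCAAX. It read 1.68, 1.00 and 1.04 in hog1del, and the 3 strains formed separate ranges. TEC1 was 3.15-fold higher in HOG1-CCAAX than in HOG1-GFP (1.66 ± 0.07, adjusted p = 4.6e-05) and differed from hog1del by −0.98 (adjusted p = 0.0011). NRG2, a repressor of filamentation and of glucose-repressed genes, was 3.31-fold higher than in HOG1-GFP (1.73 ± 0.32, adjusted p = 9.7e-05). PRM4, a pheromone-regulated membrane protein, read −0.06, −1.09 and −1.21 in HOG1-GFP and 0.74, 0.17 and 0.08 in HOG1-CCAAX, against 1.97, 1.16 and 1.17 in hog1del. Its difference was 1.12 ± 0.28 (adjusted p = 6.0e-04), and without the block the call was lost (adjusted p = 0.1855).

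FUS1 and KAR4, markers of the mating response, did not pass. FUS1, needed for cell fusion, read 0.42, −1.78 and −1.18 in HOG1-GFP and −0.12, −1.63 and −0.78 in HOG1-CCAAX, against 0.89, 1.81 and 1.74 in hog1del. The ranges of HOG1-GFP and HOG1-CCAAX overlapped, and FUS1 differed by 0.01 ± 0.49 (95% interval −0.99 to 1.00, adjusted p = 0.9966). KAR4, a factor for karyogamy genes, read −0.05, −0.01 and −0.37 in HOG1-GFP, 0.29, −0.41 and −0.35 in HOG1-CCAAX and 2.44, 1.74 and 1.71 in hog1del. It differed by −0.01 ± 0.37 from HOG1-GFP (95% interval −0.35 to 0.33, adjusted p = 0.9767) and by −2.12 from hog1del (adjusted p = 4.0e-05). Of 38 pheromone and mating genes measured, 8 were higher, 3 lower and 27 did not pass (median 0.28, and 0.92 in hog1del minus HOG1-GFP). The shares over all genes were 6.72% higher and 4.47% lower. Against hog1del, 20 of the 38 were lower in HOG1-CCAAX and 1 higher, beside 4.91% and 5.95% over all genes. PRM10 went against the higher members. It read 2.36, 1.71 and 1.62 in HOG1-GFP and −0.63, −0.60 and −0.71 in HOG1-CCAAX, and was 5.82-fold lower (−2.54 ± 0.39, adjusted p = 3.5e-05). Without replicate 1 the list had 15 higher members, without replicate 2 it had 3, and without replicate 3 or the block it had 1. With median centring or quantile normalization it had 5.

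Of 21 filamentation genes 4 were higher, TEC1, NRG2, NRG1 (1.06 ± 0.64, adjusted p = 0.0125) and HMS1 (0.97 ± 0.13, adjusted p = 0.0018, or 0.1031 without the block), and 2 lower, NFG1 and PHD1 (−0.59 ± 0.29, adjusted p = 0.0436, or 0.1168 without replicate 2, 0.2017 without replicate 3, 0.6561 without the block and 0.0683 with quantile normalization). The shares over all genes were 6.72% higher and 4.47% lower. NFG1 (YLR042C), a cell wall protein and negative regulator of filamentous growth, read 2.17, 1.23 and 1.19 in HOG1-GFP. It read −1.56, −1.24 and −1.10 in HOG1-CCAAX and −0.47, −0.09 and −0.14 in hog1del. HOG1-CCAAX was thus lowest of the 3 strains in each replicate, 7.11-fold below HOG1-GFP (−2.83 ± 0.79, adjusted p = 1.0e-04) and −1.07 against hog1del (adjusted p = 0.0275). NRG1 lost its call without replicate 2 (adjusted p = 0.1168), replicate 3 (0.1398) or the block (0.4098). Of 6 measured a-specific genes, AGA2 (0.85 ± 0.22, adjusted p = 0.0021) and BAR1 (0.64 ± 0.32, adjusted p = 0.0375) were higher in HOG1-CCAAX. Of 4 alpha-specific genes 0 passed with limma and 1 had an unadjusted p under 0.05. A ratio to a reference pool does not show which set is absent, so these genes do not give the strains' mating type. AGA2 and BAR1 did not pass without replicate 3 (adjusted p = 0.0780 and 0.1589) or the block (0.2734 and 0.2413), nor BAR1 without replicate 2 (0.1168), with median centring (0.0557) or with quantile normalization (0.1261).

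Some genes for ribosomes were lower in HOG1-CCAAX by small amounts, and most did not pass. Of 108 measured genes of cytosolic ribosomal proteins, 22 were lower, 0 higher and 86 did not pass, 105 had a difference below 0, and the median was −0.39 against 0.03 over all genes. Of 98 ribosome biogenesis genes, 15 were lower and 1, FAL1 (0.80 ± 0.16, adjusted p = 0.0023, or 0.0520 without replicate 3 and 0.2259 without the block), higher, with a median of −0.30. Of 24 genes for RNA polymerases I and III, 7 were lower and 0 higher (median −0.34). Beside these lists, 4.47% of all genes were lower and 6.72% higher. In hog1del minus HOG1-GFP the medians of these 3 lists were −0.08, 0.24 and −0.002. Against hog1del, 14 of the 108, 37 of the 98 and 4 of the 24 were lower in HOG1-CCAAX and 0 higher in each list, beside 4.91% lower over all genes.

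NOP15, a factor for the large ribosomal subunit, read −0.71, −0.28 and −0.52 in HOG1-GFP and −1.41, −1.64 and −1.55 in HOG1-CCAAX. It read −0.34, −0.14 and −0.48 in hog1del, a range that overlapped that of HOG1-GFP, whereas that of HOG1-CCAAX lay below both. NOP15 was 2.04-fold lower than in HOG1-GFP (−1.03 ± 0.33, adjusted p = 0.0015) and differed by −1.22 from hog1del (adjusted p = 0.0010). NOC2, which acts in the export of pre-ribosomes, read 0.27, −1.55 and −1.69 in HOG1-GFP and −0.75, −2.59 and −2.51 in HOG1-CCAAX, against 0.01, −1.43 and −1.59 in hog1del. The ranges of HOG1-GFP and HOG1-CCAAX overlapped, since replicate 1 read higher in all 3 strains, while within each replicate HOG1-CCAAX was lowest. The difference was −0.96 ± 0.12 (adjusted p = 0.0013, or 0.6825 without the block). TSR1, a factor for the small subunit, read −0.37, −0.39 and −0.55 in HOG1-GFP, −0.86, −2.43 and −2.28 in HOG1-CCAAX and −0.33, −1.98 and −1.99 in hog1del. The range of HOG1-CCAAX lay below that of HOG1-GFP and overlapped that of hog1del. The difference of −1.42 ± 0.82 passed (adjusted p = 0.0097) and was lost without replicate 2 (adjusted p = 0.0945), replicate 3 (0.1330) or the block (0.2535).

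The ribosomal protein and ribosome biogenesis lists differed least in replicate 1. Their replicate medians were −0.08, −0.56 and −0.49 for ribosomal proteins and −0.005, −0.54 and −0.34 for biogenesis, against −0.29, −0.53 and −0.20 for the polymerases. Without replicate 1, 58 of 108 and 45 of 98 were lower. Without replicate 2, 2 and 2 were lower, without replicate 3, 0 and 2, and without the block 0 and 1. With quantile normalization, 3 of the 108 ribosomal protein genes, 12 of the 98 and 1 of the 24 polymerase genes were lower. The polymerase list had 8 lower genes without replicate 1 and 0 without replicate 2, replicate 3 or the block, where 7, 12 and 4 had an unadjusted p under 0.05. Many ribosomal protein genes have a near-identical copy, so their probes may not tell copies apart. The fit that needed values in only 2 replicates added 11 lower ribosomal protein genes.

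**Figure D3:**
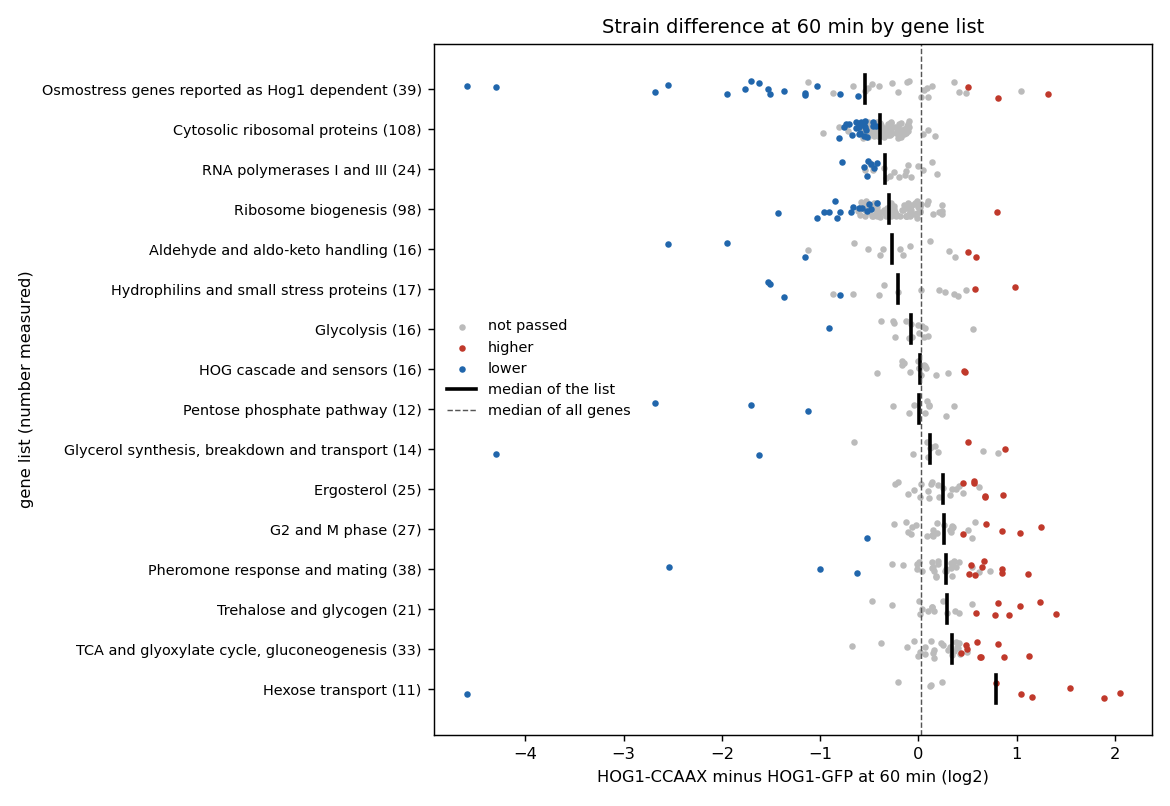
Difference of levels at 60 min, HOG1-CCAAX minus HOG1-GFP (log2, x axis), for the measured genes of 16 lists (y axis, number measured in brackets); 1 point is a gene coloured by its test, the solid bar is the list's median and the dashed line the median of all 5700 genes (0.03). Hexose transport has a median of 0.79 with HXT1 far to the left, and the 108 ribosomal protein genes lie mostly left of the line.

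Cell cycle genes of the later phases were higher in part. CLB2, the main mitotic cyclin, read −1.71, −1.52 and −1.36 in HOG1-GFP and −0.53, −0.25 and −0.69 in HOG1-CCAAX, with no overlap (1.04 ± 0.32, adjusted p = 0.0067). HOF1, which acts in cytokinesis, was 2.37-fold higher (1.24 ± 0.12, adjusted p = 3.1e-04). Of 27 genes of G2 and M phase, 5 were higher and 1, CDC28 (−0.52 ± 0.27, adjusted p = 0.0300, or 0.0651 without replicate 1, 0.1133 without replicate 2, 0.1854 without replicate 3, 0.4273 without the block and 0.0676 with 2 strains in the fit), lower (median 0.27), and of 16 genes of G1 and Start 1 was higher, the cyclin gene PCL2 (0.56 ± 0.19, adjusted p = 0.0160). The shares over all genes were 6.72% higher and 4.47% lower. In these whole cultures, more or fewer cells in a phase and more or less RNA per cell cannot be told apart. The calls of CLB2 and PCL2 were lost without replicate 2 (adjusted p = 0.0879 and 0.0690) or the block (0.0877 and 0.2501), and that of PCL2 also without replicate 3 (0.2323) or with quantile normalization (0.0511). The list of G2 and M phase had 9 higher members without replicate 1 and 2 without replicate 2, replicate 3 or the block.

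Most cell wall genes did not pass, and those that did went both ways. CWP1, a wall mannoprotein, read 2.47, 1.07 and 1.14 in HOG1-GFP and −0.03, −0.15 and −0.43 in HOG1-CCAAX, without overlap, and was 3.4-fold lower (−1.77 ± 0.66, adjusted p = 5.3e-04). Its HOG1-GFP value of replicate 1 came from 1 of 3 arrays, and without that replicate the difference was −1.40 (adjusted p = 3.5e-04). SED1, an abundant wall mannoprotein, differed by −1.33 ± 0.48 (adjusted p = 0.0013, or 0.1142 without the block). Of 35 genes of cell wall signalling and structure, 4 were lower, 4 higher and 27 did not pass (over all genes 4.47% were lower and 6.72% higher), the higher ones led by the sensor gene MID2 (0.81 ± 0.23, adjusted p = 0.0039). MID2 did not pass without replicate 3 (adjusted p = 0.0780) or the block (0.3841). Without replicates 1, 2 and 3, 5, 1 and 0 genes of the list were higher and 6, 3 and 2 lower, and without the block 0 were higher and 1 lower.

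Several metabolic lists had members higher in HOG1-CCAAX. Of 25 ergosterol genes 6 were higher and 0 lower (median 0.25), led by HES1, which belongs to the oxysterol-binding proteins (0.86 ± 0.16, adjusted p = 0.0027). Of 81 amino acid synthesis genes 9 were higher and 3 lower, beside 6.72% and 4.47% over all genes. The same shares apply to the ergosterol list. GLN1, glutamine synthetase, read −1.60, −1.07 and −0.94 in HOG1-GFP and −0.50, 0.33 and 0.20 in HOG1-CCAAX (1.21 ± 0.16, adjusted p = 3.8e-04), and lost its call without the block (adjusted p = 0.0535). ARG3, the ornithine carbamoyltransferase of arginine synthesis, read 1.76, 1.24 and 1.05 in HOG1-GFP and −0.14, −0.18 and −0.15 in HOG1-CCAAX, and was 2.85-fold lower (−1.51 ± 0.36, adjusted p = 0.0022). It also differed from hog1del by −0.85 (adjusted p = 0.0368). Both genes had ranges that did not overlap between HOG1-GFP and HOG1-CCAAX, as did 17.8% of all genes. Without replicate 2, replicate 3 or the block, 1 ergosterol gene was higher in each case, and 1, 1 and 0 amino acid genes were higher and 1 lower.

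IMD2, an IMP dehydrogenase of purine synthesis, was 2.59-fold higher (1.37 ± 0.25, adjusted p = 1.8e-04), and the uracil permease gene FUR4 was lower (−1.04 ± 0.33, adjusted p = 0.0013). Of 27 iron uptake genes 5 were higher and 2 lower, beside 6.72% and 4.47% over all genes, with the wall mannoproteins of siderophore uptake split. FIT2 was 2.38-fold higher (1.25 ± 0.27, adjusted p = 3.2e-04), and FIT1 lower (−1.69 ± 0.91, adjusted p = 0.0105). FIT1 read 0.55, 1.28 and 1.18 in HOG1-GFP and −0.09, −0.89 and −1.09 in HOG1-CCAAX, and did not pass without replicate 2 (adjusted p = 0.0948), replicate 3 (0.1266) or the block (0.0908). Of 27 phosphate genes 4 were higher and 0 lower, led by the acid phosphatase gene PHO12 (0.96 ± 0.10, adjusted p = 8.1e-04), whose copy PHO11 may share its signal. Without replicate 2 and without replicate 3, 1 iron gene was higher in each case, and without replicate 1, 2 and 3, 7, 3 and 2 phosphate genes were higher. Without the block 1 iron gene and 2 phosphate genes were higher.

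Among 17 heat shock proteins 2 were higher, HSP26 and SSE2, a chaperone of the Hsp110 family (0.59 ± 0.47, adjusted p = 0.0421, or 0.0652 without replicate 1, 0.3540 without replicate 2, 0.0813 without replicate 3, 0.3841 without the block, 0.0562 with median centring and 0.0800 with 2 strains in the fit). The share higher over all genes was 6.72%. HSP26, a small heat shock protein, read −1.27, −0.76 and −0.37 in HOG1-GFP and 1.05, 0.83 and 0.86 in HOG1-CCAAX, with no overlap, and was 3.27-fold higher (1.71 ± 0.55, adjusted p = 6.6e-04). In hog1del it read −0.61, 0.20 and 0.23, below HOG1-CCAAX (adjusted p = 0.0168). The polyamine exporter gene TPO1 was 2.85-fold higher (1.51 ± 0.13, adjusted p = 8.1e-05), and GAT3, of the GATA zinc finger family, 3.02-fold (1.60 ± 0.55, adjusted p = 7.5e-04). YGR035C completes the 12 genes with the largest increases (1.77 ± 1.04, adjusted p = 0.0245). It read 0.05, −1.94 and −1.87 in HOG1-GFP and 0.61, 0.40 and 0.54 in HOG1-CCAAX, and did not pass without replicate 2 (adjusted p = 0.1564), replicate 3 (0.2017) or the block (0.1271), or with a trended, robust variance (0.0655). Of 30 proteasome genes and 16 genes of protein folding in the endoplasmic reticulum, 0 passed with limma, and 4 and 3 had an unadjusted p under 0.05. Their medians were −0.18 and −0.02. Without replicate 1, 2 proteasome genes were lower and 1 folding gene higher.

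The remaining lists were smaller, and the shares over all genes to set beside them are 6.72% higher and 4.47% lower. Of 13 genes of daughter cells and cell separation, 3 were higher (median 0.38), among them DSE1 (0.77 ± 0.29, adjusted p = 0.0070, or 0.0991 without replicate 2 and 0.2549 without the block) and SCW11 (0.60 ± 0.09, adjusted p = 0.0157, or 0.1511 without replicate 2, 0.1438 without replicate 3 and 0.3122 without the block). Of 9 histone genes 2 were lower, HTA2 (−0.77 ± 0.10, adjusted p = 0.0114, or 0.0555 without replicate 2, 0.1614 without replicate 3 and 0.4608 without the block) and HHF1 (−0.51 ± 0.16, adjusted p = 0.0374, or 0.0839 without replicate 1, 0.0979 without replicate 2, 0.2399 without replicate 3, 0.4601 without the block, 0.0561 with quantile normalization and 0.0587 with 2 strains in the fit), and near-identical copies of both exist. Of 29 oxidative defence genes 3 were higher and 1 lower (median 0.09). The higher ones were the peroxidase gene GPX1 (0.83 ± 0.08, adjusted p = 0.0035, or 0.0944 without replicate 3), the catalase gene CTA1 (0.75 ± 0.40, adjusted p = 0.0187, or 0.1118 without replicate 2, 0.2323 without replicate 3 and 0.2233 without the block) and the glutathione transferase gene GTT1 (0.61 ± 0.26, adjusted p = 0.0149, or 0.1906 without replicate 2, 0.0951 without replicate 3 and 0.0772 without the block). PRX1, a mitochondrial peroxiredoxin, was lower (−0.61 ± 0.46, adjusted p = 0.0450, or 0.1442 without replicate 1, 0.2211 without replicate 3, 0.2199 without the block and 0.0711 with 2 strains in the fit).

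Eisosomes, the furrows of the plasma membrane, had members on both sides, with 3 of 14 higher and 3 lower (median 0.01). PIL1, a core component, read 2.62, −0.09 and 0.18 in HOG1-GFP and 0.85, −0.50 and −0.66 in HOG1-CCAAX (−1.01 ± 0.69, adjusted p = 0.0434, or 0.2079 without replicate 3, 0.6825 without the block, 0.0572 with quantile normalization and 0.0713 with a trended, robust variance). SUR7, a membrane protein of these sites, read −0.39, −0.41 and −0.54 in HOG1-GFP and 0.32, 0.37 and 0.47 in HOG1-CCAAX (0.83 ± 0.16, adjusted p = 0.0023, or 0.0780 without replicate 3). For SUR7 no value of one strain reached the range of the other. The value of PIL1 in HOG1-GFP replicate 1 came from 1 of 3 arrays. Of 21 genes of sodium and potassium transport, 1 was lower, ENA2 (−0.52 ± 0.13, adjusted p = 0.0458, or 0.1884 without replicate 2, 0.2466 without replicate 3, 0.5452 without the block, 0.0574 with quantile normalization and 0.0516 with 2 strains in the fit), and 1 higher, HAL5 (0.44 ± 0.13, adjusted p = 0.0455, or 0.3112 without replicate 2, 0.2161 without replicate 3, 0.1875 without the block, 0.0650 with median centring, 0.0611 with quantile normalization and 0.0827 with 2 strains in the fit). Of 22 genes of autophagy and vacuolar proteases, 2 were higher and 2 lower, of which PAI3, an inhibitor of proteinase A, changed most (−1.07 ± 0.41, adjusted p = 0.0049, or 0.0735 without replicate 3 and 0.1672 without the block). Of 18 genes of peroxisomal fatty acid oxidation 4 were higher and 0 lower (median 0.19), POT1 and CTA1 among them, and of 31 nucleotide genes 3 were higher and 3 lower (median 0.11). Without replicate 2, replicate 3 or the block, 1 peroxisomal gene was higher in each case, and 1 nucleotide gene was higher and 1 lower. Of the 14 eisosome genes, 0 passed with limma without replicate 3, where 7 had an unadjusted p under 0.05.

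The same strains were compared at 0 min, to show which differences were present without sorbitol. Of 5443 genes with values at both times, 15 (0.276%) differed at 0 min, 10 higher (0.184%) and 5 lower (0.0919%) in HOG1-CCAAX. Of these 15, 13 (86.7%) were called in the same direction at 60 min, and they made up 2.15% of the 606 calls at 60 min within these genes. The SD of the difference across genes was 0.15 at 0 min and 0.37 at 60 min, and the 2 differences correlated at 0.31 across genes. The calls at 0 min depended on the replicates: without the block 0 genes passed by limma and 58 had an unadjusted p under 0.05, and leaving out replicates 1, 2 and 3 gave 39, 14 and 6 calls.

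CWP1 differed by −1.48 at 0 min (SE 0.18, adjusted p = 0.0068), SED1 by −0.82 (SE 0.10, adjusted p = 0.0068) and PNS1, a choline-transporter-like protein, by −0.89 (SE 0.13, adjusted p = 0.0173). IMD2 (0.92, SE 0.13, adjusted p = 0.0159) and PRM5, a cell wall stress gene (0.71, SE 0.11, adjusted p = 0.0254), were higher at 0 min. For these 5 genes the change of the difference by 60 min did not pass (adjusted p from 0.1517 to 0.8258). Another 4 genes, of the block of repeats around the asparaginase gene ASP3, were also higher at 0 min, YLR156W, YLR159W, YLR161W and ASP3-3, by 0.73 to 1.12. Their copies are nearly identical, so their probes may read 1 source. Further genes called at 0 min were TOS8, YGL262W and YAR073W (higher), YMR173W-A (lower) and NDJ1, which was higher by 0.90 at 0 min and did not pass at 60 min (0.34, adjusted p = 0.1325). YAR073W resembles IMD2, and YMR173W-A shares its place with DDR48, so these probes may read the same transcripts. TIR1, a wall mannoprotein of cold and low oxygen, turned its direction. It was lower in HOG1-CCAAX at 0 min (−0.59, SE 0.09, adjusted p = 0.0173) and higher at 60 min (0.77, adjusted p = 0.0193, or 0.1811 without replicate 2, 0.2262 without replicate 3 and 0.2583 without the block), and the change passed (1.36, SE 0.18, adjusted p = 0.0033).

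The change of the strain difference between 0 and 60 min, tested as their interaction, passed for 184 of 5443 genes (3.38%), with 108 rises (1.98%) and 76 falls (1.4%). Of 114 genes called with at least 2-fold at 60 min, 82 had such a change in the direction of the 60 min difference. All 12 lower genes with the largest differences passed, and so did the 11 of 12 higher ones that have values at 0 min. These genes and the 114 were chosen by their 60 min difference, which is part of the tested change. Their counts are thus a description and no separate evidence of a change. STL1 differed by −0.19 at 0 min and by −4.30 at 60 min, a change of −4.11 (SE 0.34, adjusted p = 1.7e-04). HXT1 differed by −1.05 at 0 min, which did not pass (adjusted p = 0.0877), and changed by −3.54 (SE 0.26, adjusted p = 1.2e-04). GAL2 went from 0.03 to 2.05 (change 2.02, SE 0.17, adjusted p = 1.7e-04) and MTH1 from −0.20 to 1.83 (change 2.03, SE 0.22, adjusted p = 6.5e-04). In the osmostress list 9 of 39 differences fell and 2 rose, and in the ribosome biogenesis list 3 of 96 fell and 1 rose. Without the block 18 genes passed, and leaving out replicates 1, 2 and 3 left 359, 66 and 26.

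**Figure D4:**
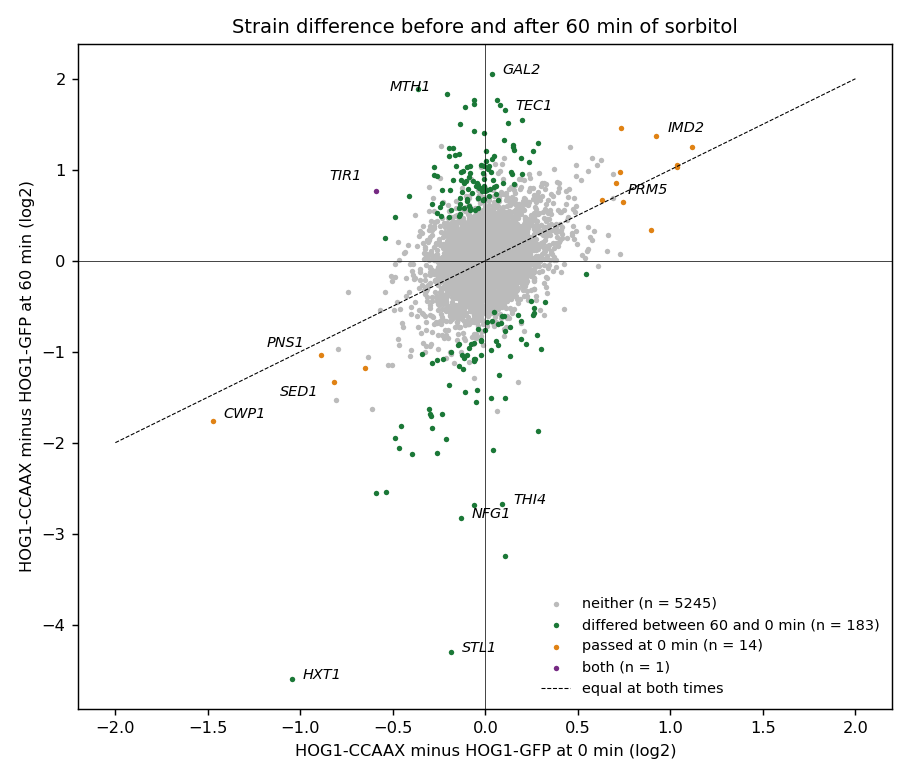
Difference of HOG1-CCAAX minus HOG1-GFP at 0 min (x axis) and at 60 min (y axis), both log2, for 5443 genes; green points have a difference that changed between the times, orange points passed at 0 min, and the dashed line marks equal differences. CWP1, SED1, PNS1 and IMD2 lie near the dashed line, and STL1 and GAL2 lie near 0 on the x axis and far from 0 on the y axis.

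Some genes with large differences adjoin each other. In the order of protein-coding genes in RefSeq, 9 of 57 genes that were lower by at least 2-fold adjoined another such gene (15.8%), against 94 of 5373 (1.75%) among all tested genes. For genes higher by at least 2-fold, 4 of 54 did (7.41%), against 89 of 5373 (1.66%). The lower groups were FIT1 with STL1, YJL107C with PRM10, PAI3 with SIP18, and the run of RRP40, RIB4 and NOP8. RRP40 belongs to the RNA exosome and NOP8 to the ribosome assembly factors. The higher pairs, ASP3-1 with YLR156W and ASP3-4 with YLR161W, lie in the repeats named above. Overlapping transcripts and probes that read a neighbour were not tested.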

How the data were processed

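Transcript levels were measured on 2-colour arrays, with sample RNA amplified with amino-allyl labelling and hybridised against a common reference pool, per the labels' protocols. The authors deposited level tables, 1 per biological replicate, of log2 ratios of reference over sample averaged over 3 or 2 technical arrays. Their sign was turned here after comparison with the deposited log2 ratios of single arrays. How background and channels were treated is not given in the sources used here, so folds of dim genes may be understated, and the number of arrays limits the precision. Names came from RefSeq locus tags, which matched 5804 of 6278 open reading frames.

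Genes with values in all 9 columns at 60 min (5700) were fitted with limma 3.58.1 in R 4.3.3 (lmFit and eBayes, two-sided), with strain and biological replicate as terms and Benjamini-Hochberg adjustment. The 0 min fit and the interaction used 5443 genes. Replicate numbers were taken to pair the strains, since the labels' numbers go with separate deposited tables. At 60 min, deviations from the strain means had correlations of 0.755, 0.652 and 0.452 for equal-numbered columns 1, 2 and 3. Crossing replicates 2 and 3 gave 0.615 and 0.662, both above the 0.452 of equal-numbered column 3. These values set replicate 1 apart. They cannot decide how replicates 2 and 3 pair, since deviations from a shared mean are tied to each other. The pairing thus rests on the labels and tables alone, and the 60 min count depends on the block (638 calls with it, 107 without). Scripts were tested on simulated data. The fits without the block, with other scalings, averages and gene sets, and without each replicate were tried, and the closing section gives their effect.

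The members and lists were chosen with earlier results of these data known. Named genes are HOG1, the tag probes, up to 12 per direction with the largest differences of at least 2-fold that passed with 1 sign in 3 replicates, up to 4 per list, 13 pathway genes, the 3 largest and 3 smallest of the authors' list and up to 6 per direction by interaction. Other genes named to complete a count or as pathway members were chosen after their values were seen. One list member that passed is not reported here.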

Additional observations from a re-analysis of the deposited data

Results flagged for a closer look

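The strain difference changed between 0 and 60 min for 184 genes by the interaction test of limma, that is, the effect of HOG1-CCAAX against HOG1-GFP was not equal at both times. The genes with the largest changes, as 60 min difference minus 0 min difference on the log2 scale, were as follows. HXT4 changed by 2.26, MTH1 by 2.03, GAL2 by 2.02, YGR035C by 1.83, HAP4 by 1.80 and NRG2 by 1.78, all toward higher levels in HOG1-CCAAX. STL1 changed by −4.11, HXT1 by −3.54, YBR116C by −3.35, THI4 by −2.76, NFG1 by −2.70 and TKL2 by −2.62. Groups of 3 replicates are too small for a test of single outlying samples, and none was run.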

How the results depend on the processing

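All settings below refer to limma counts of genes that differ between HOG1-CCAAX and HOG1-GFP. At 60 min 638 genes passed, 117 with a 2-fold minimum, 107 without the replicate block, and 116 to 1004 when 1 replicate was left out. Leaving out replicate 1 and the replicate block together, an alternative chosen after seeing the data, gave 1234. With 2 strains in the fit 433 genes passed, against 686 with genes of at least 2 replicates. At 0 min 15 genes passed, 4 with a 2-fold minimum, 0 without the replicate block (58 at an unadjusted p under 0.05), 9 with quantile normalization and 6 to 39 without 1 replicate. The interaction had 184 calls, 86 with a 2-fold minimum, 18 without the replicate block and 26 to 359 without 1 replicate. No named gene that passed changed its sign. Which direction had more calls did turn. At 0 min 10 genes were higher and 5 lower, and without replicate 1 14 and 25. The interaction had 108 rises and 76 falls, but 7 and 11 without the replicate block, 28 and 38 without replicate 2, and 9 and 17 without replicate 3. The split at 60 min was 383 higher and 255 lower, and with median centring, which moved the median difference from 0.03 to −0.03, 273 and 314. Of 165 named genes in the 60 min fit 117 passed, and 35 of these passed under every alternative run. The cause of the lost calls was not tested. A search for promoter motifs was planned and not run, since no sequence was at hand. Low signal could not be weighed, since no background values were used here.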
